A study of Mus musculus with 36 samples.

Results

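The genes described here are 10 transcripts of the neutrophil chemoattractant axis and of neutrophil granules: Cxcl1, Cxcl2, Cxcl3, Cxcl5, Csf3, Cxcr2, S100a8, S100a9, Retnlg and Mpo. They were chosen by symbol, as known genes of this axis and not by a threshold on measured values, with earlier results of these data known, and each symbol was matched to 1 Ensembl gene of the 52636 genes counted. All 10 are protein-coding genes of GRCm38. Cxcl5 (chr5:90759360-90761624), Cxcl3 (chr5:90786103-90789600), Cxcl1 (chr5:90891241-90893115) and Cxcl2 (chr5:90903871-90905938) lie on the plus strand of one chromosome arm. S100a8 (chr3:90668978-90670035, plus strand) and S100a9 (chr3:90692632-90695721, minus strand) are neighbours on chromosome 3. The remaining loci are Csf3 (chr11:98701263-98703629), Mpo (chr11:87793581-87804413), Cxcr2 (chr1:74153989-74161246) and Retnlg (chr16:48872621-48874496), all on the plus strand.

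The products of Cxcl1, Cxcl2, Cxcl3 and Cxcl5 are chemokines that epithelium, stroma and macrophages release on injury or microbial sensing, and that attract neutrophils through the receptor CXCR2. Csf3 encodes G-CSF, the growth factor that drives granulocyte production and release from bone marrow. S100A8 and S100A9 pair to form calprotectin, the most abundant cytosolic protein of mature neutrophils and a faecal marker of gut inflammation, Retnlg marks mature mouse neutrophils, and myeloperoxidase (Mpo) is a primary granule enzyme whose transcript is made early, in promyelocytes of the fetal liver and bone marrow, and is mostly gone from mature neutrophils.

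RNA from whole intestines of E18.5 mouse embryos was sequenced in 2 sets, with 3 biological replicates per genotype, and RNA from primary mouse embryonic fibroblasts (MEFs) was sequenced in a further set of 6 libraries. The D387A set held Mlkl KO controls, Casp8 D387A KI with intact Mlkl, and Casp8 D387A KI combined with Cflar KO and Mlkl KO, either as such or with Casp1 KO, with Casp1 KO and Ifnar1 KO, or with Casp1 KO and Fadd KO. The C362A set held its own Mlkl KO controls, Casp8 C362A KI with Mlkl KO, the same with Casp1 KO, and the same with Cflar KO. The MEFs were Mlkl KO or carried Casp8 D387A KI with Cflar KO and Mlkl KO. D387A blocks an autoprocessing site of caspase-8 and C362A removes its catalytic cysteine. Cflar encodes cFLIP, the partner and regulator of caspase-8, Mlkl encodes the executioner of necroptosis, Casp1 the inflammatory caspase of pyroptosis, Ifnar1 a type I interferon receptor chain, and Fadd the adaptor that recruits caspase-8. Genotypes are called below by the altered genes, such as D387A Cflar Mlkl. No wild type was analysed, every intestine other than D387A alone was labelled Mlkl KO, and D387A alone therefore differed by label from its controls at both Casp8 and Mlkl. MEFs were grown from embryos after removal of head and organs, and so hold no intestine. In the sample names of the D387A set the controls and D387A Cflar Mlkl share a leading number while D387A alone and each genotype with Casp1 KO have their own. In the C362A set the names of the controls end in a letter T that the names of the mutants lack. What these numbers and this letter mark is not given, and a difference that goes with them cannot be told apart from genotype.

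Reads on genes numbered 17943524 to 27721024 per library in the D387A set, 21757868 to 31052238 in the C362A set and 20927014 to 32307629 in the MEFs. Casp1 had 0 to 5 reads in every Casp1 KO library, and Fadd had 15 to 23 reads in the Fadd KO libraries. Ifnar1 was at 33.2 to 37.9 CPM (the count scaled to library size, with TMM factors) in the Ifnar1 KO libraries and at or above 76.1 CPM in the other intestines. Transcripts of Cflar and Mlkl were still counted in libraries labelled KO, at 33.8 to 59.4 CPM for Cflar in the D387A set, so gene totals do not check those labels. Mlkl itself was at 2.13 to 5.35 CPM in the Mlkl intestines and at 18.3 to 62.6 CPM in the other Mlkl KO intestines, apart from D387A Cflar Mlkl Casp1. One library stood apart. The library labelled D387A Cflar Mlkl Casp1 replicate 3 had 46.1 CPM of Mlkl against 6.27 and 7.46 in the other replicates of its label. Among them it had the highest level of every member other than Mpo. These libraries are called by their labels, which the Mlkl level does not check. Several member changes that it moved are given with and without it, and all other values and the gene lists include it.

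Promoter sequence of the CXC ligands is shown because 3 of them share a motif of NF-kB, the inflammatory transcription factor that acts downstream of TNF and IL-1 receptors. Windows of 300 bases, from 250 before to 50 after the RefSeq start on GRCm38.p6, were found for 8 of the 10 genes, and none for Cxcl5 and Csf3. Printed below, 5′ to 3′ on the plus strand, are the 90 bases from 120 to 31 before the start of each gene, with capitals marking matches of the 10-letter NF-kB consensus on the plus and minus strands, which overlap to 11 letters. The stretches lie at chr5:90891125-90891214 for Cxcl1, chr5:90903779-90903868 for Cxcl2 and chr5:90785981-90786070 for Cxcl3.
Cxcl1: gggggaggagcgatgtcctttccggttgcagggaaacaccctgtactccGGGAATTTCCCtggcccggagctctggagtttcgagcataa
Cxcl2: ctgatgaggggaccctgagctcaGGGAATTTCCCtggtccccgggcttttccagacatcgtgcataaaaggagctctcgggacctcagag
Cxcl3: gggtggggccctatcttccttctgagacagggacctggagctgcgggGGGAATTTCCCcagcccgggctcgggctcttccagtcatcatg

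The match was the same 11 letters in all 3 genes, and its first base lay 71 bases before the start in Cxcl1, 97 in Cxcl2 and 73 in Cxcl3. A match of this consensus on either strand was present in 4.51% of 32851 windows of the same length from 27025 genes. The windows of Cxcr2, S100a8, S100a9, Retnlg and Mpo held none, which says only that these letters are not in those windows. TATAAA was found in the windows of Cxcl3, S100a8 and S100a9 and in 13.6% of all windows on either strand, a C/EBP consensus in those of Retnlg and S100a9 and in 10.8% of all, and the AP-1 motif TGANTCA in none of the 8 and in 7.81% of all. These are matches of letters and not measured binding sites.

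In Mlkl control intestines of both sets all 5 secreted factors were close to the detection limit. Over 3 libraries the D387A set controls had 6 reads of Cxcl1, 4 of Cxcl2, 3 of Cxcl3 and 0 of Csf3, which allows a level of up to 0.0510 CPM by counting error alone. Levels set between genes are given per exon length, as RPKM computed from the counts on TMM-scaled libraries. On that scale S100a9 (8.01 ± 6.77 RPKM, SD, n = 3) and S100a8 (5.72 ± 5.51) were the highest of the 10 in these controls and did not differ beyond their spread, followed by Retnlg (0.643 ± 0.290) and then by Mpo, Cxcl1, Cxcl5 and Cxcr2, all at or under 0.208 RPKM.

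In Casp8 D387A alone not 1 of the 10 was called different from the Mlkl controls by the quasi-likelihood test of edgeR, with p-values adjusted by Benjamini-Hochberg over all genes (called here means a log2 fold change past 1 or -1 with an adjusted p under 0.05), and 0.00545% of the 18360 genes tested were called at all, while 921 genes had an unadjusted p under 0.05. Most members passed the filter on low counts through other genotypes of the set, and with only these 2 groups 2 of the 10 had enough reads to be tested. For the others falls and small rises were not detectable at this depth. Large rises from the same controls were, such as Cxcl1 from 6 to 639 reads in D387A Cflar Mlkl. Cxcl1 had 1, 6 and 3 reads, Cxcl2 had 0, 0 and 1, Cxcl5 had 3, 2 and 4, and Csf3 had none in any of the 3 embryos. S100a8 was at 4.16, 2.80 and 1.59 CPM, within the range of 0.807 to 5.83 CPM of the controls.

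All 4 ligands, Csf3, Cxcr2 and the 3 mature neutrophil genes rose above the Mlkl controls in D387A Cflar Mlkl intestines. By label these intestines differ from the controls at both Casp8 and Cflar. From D387A alone they differ in Mlkl and in the leading number as well as in Cflar. No direct test against D387A alone was made, so the part of cFLIP loss in the rise was not tested. In D387A Cflar Mlkl intestines 9 of the 10 members were called higher and Mpo was called lower, where 9.4% of all genes tested were called higher and 12.8% lower. The median log2 fold change of the 10 was 4.54, beside a median of -0.01 over all genes. Because the RNA is from whole intestine, more cells of a type and more RNA per cell cannot be told apart in any of these results.

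Cxcl1, a ligand made by epithelium and stroma, was at 6.87, 13.9 and 6.79 CPM in the 3 D387A Cflar Mlkl intestines and at 0.101, 0.105 and 0.10 CPM in the controls. Every mutant embryo lay far above every control. The log2 fold change was 6.41 ± 0.94 (SE, adjusted p = 1.4e-05). Cxcl2, the ligand most associated with macrophages, was at 5.05, 6.21 and 6.51 CPM against 0.0504, 0 and 0.150 CPM. The mutants were close to each other for Cxcl2, whereas replicate 2 stood above the others for Cxcl1. The log2 fold change of Cxcl2 was 6.33 ± 0.69 (adjusted p = 4.91e-07), a size that rests on 4 control reads and was 5.81 to 7.56 when single libraries were left out. Cxcl5, an epithelial ligand, reached 15.2, 14.6 and 15.7 CPM from 2 or 3 reads per control library. It varied least among the mutants of the 4 ligands, and its log2 fold change was 6.74 ± 0.61 (adjusted p = 5.44e-08). Per exon length Cxcl1 and Cxcl5 were alike in these intestines, at 9.63 ± 4.26 and 9.62 ± 0.349 RPKM (SD, n = 3), above Cxcl2 at 3.19 ± 0.415 and Cxcl3 at 1.79 ± 0.332. Cxcl3, a close relative of Cxcl2, had 36, 38 and 55 reads against 1, 0 and 2, a ratio of 35.9 with an exact 95% interval of 12.01 to 176 that covers counting error only (log2 fold change 5.01 ± 0.59, adjusted p = 1.18e-06). Only uniquely aligned reads were counted, so stretches that these close relatives share may be missing from their totals, and the split between Cxcl1, Cxcl2 and Cxcl3 is uncertain to that extent.

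**Figure D1:**
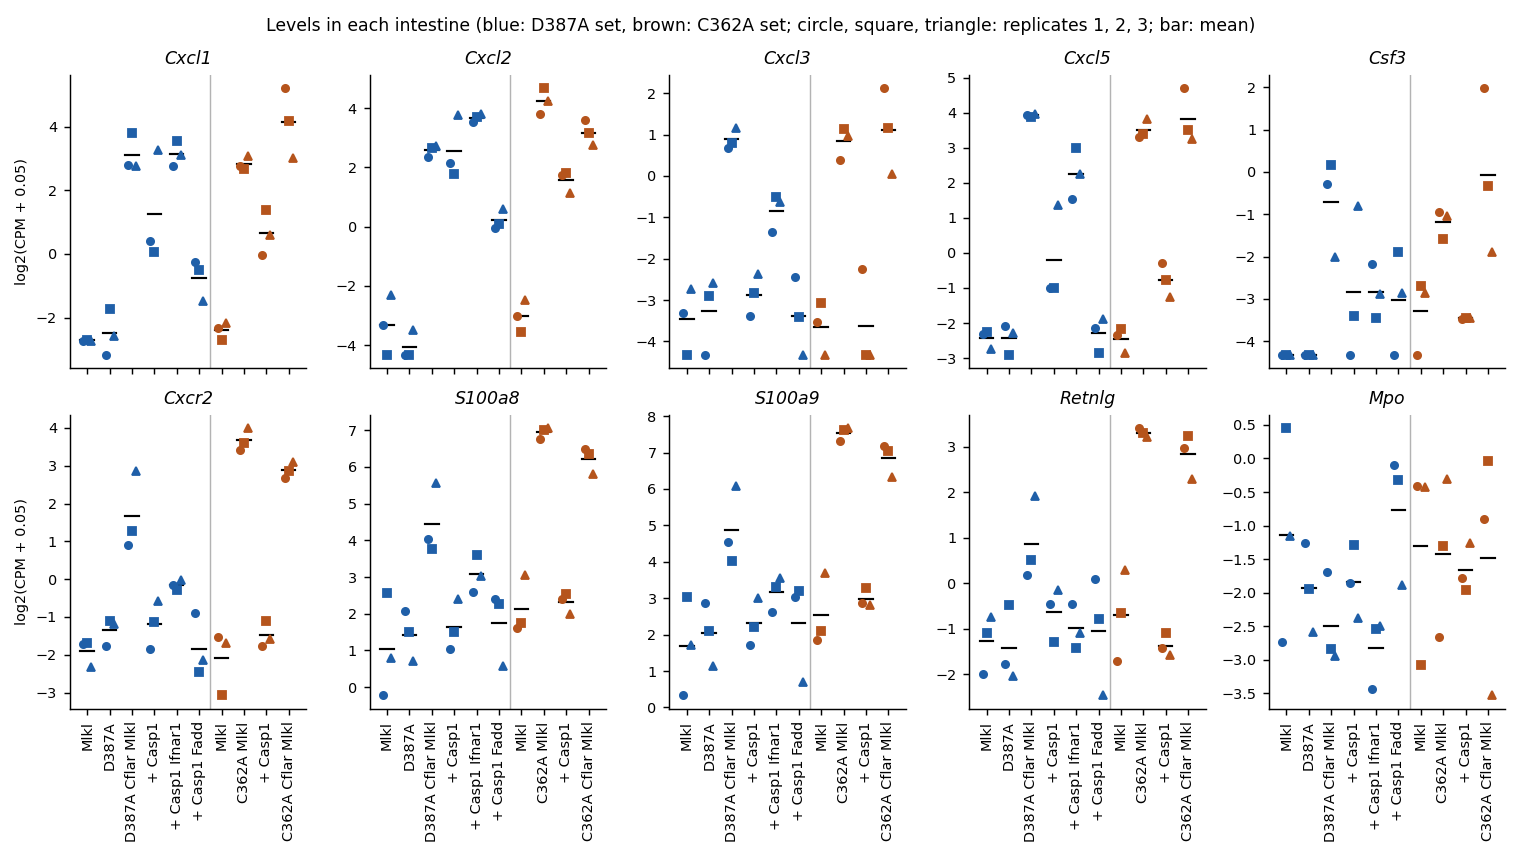
Level of each of the 10 genes in every intestine, as log2(CPM + 0.05) on the vertical axis, by genotype on the horizontal axis, with 1 symbol per embryo (circle, square and triangle for replicates 1, 2 and 3) and a bar at the mean of 3. The D387A set is blue and the C362A set brown. Cxcl1 rises from 0.102 CPM on average in the controls of the D387A set to 9.17 CPM in D387A Cflar Mlkl, and S100a8, S100a9, Cxcr2 and Retnlg are highest in C362A Mlkl.

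Csf3 behaved as a scarce transcript throughout. D387A Cflar Mlkl intestines had 18, 24 and 5 reads of it and the controls had 0, which makes it at least 13.1-fold higher (called, adjusted p = 0.00459, against a floor of 3 reads over the control group). Replicate 3, lowest for Csf3, was the highest of the 3 for Cxcr2, S100a8, S100a9 and Retnlg.

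Cxcr2, the receptor through which neutrophils follow these ligands, was at 1.81, 2.37 and 7.15 CPM in D387A Cflar Mlkl against 0.252, 0.263 and 0.150 CPM in controls. Replicate 3 stood above the other two, and all 3 lay above the controls. The log2 fold change was 4.07 ± 0.56 (adjusted p = 7.54e-06) and 3.21 without replicate 3. S100a8 was at 16.3, 13.5 and 47.3 CPM against 0.807, 5.83 and 1.70 CPM. S100a9 followed it closely, at 23.2, 16.1 and 67.5 CPM against 1.21, 8.09 and 3.25 CPM. For both calprotectin genes replicate 3 was again highest, replicate 2 was the highest control, and the groups did not overlap. S100a8 rose by 3.22 ± 0.63 (adjusted p = 0.000295) and S100a9 by 3.10 ± 0.68 (adjusted p = 0.000817) on the log2 scale, or by 2.43 and 2.24 without replicate 3 of the mutant. Without replicate 2 of the controls both were larger, with S100a8 at 4.36. Retnlg, at 1.08, 1.39 and 3.72 CPM against 0.202, 0.420 and 0.550 CPM, rose by 2.39 ± 0.61 (adjusted p = 0.00276) and by 1.64 without replicate 3 of the mutant.

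Mpo was called lower in D387A Cflar Mlkl, with 6, 2 and 2 reads against 2, 25 and 8 in controls, a log2 fold change of -2.03 ± 0.78 (adjusted p = 0.0327). The groups overlapped, and the call was not made by limma-voom (adjusted p = 0.133) or with the controls of both sets pooled (-1.84, adjusted p = 0.0598) and held in 3 of 6 fits that each left out a library. Without control replicate 2 the log2 fold change was -0.79 (adjusted p = 0.437). The same control had 5230 reads of Alb, the albumin transcript of hepatocytes, against 123 and 66 in the other controls, and the highest reads of Ngp (92 against 19 and 22) and Camp (41 against 10 and 12), granule genes of maturing granulocytes. Whether carried-over fetal liver, the site where granulocytes are made before birth, takes part in this difference was not tested. Across all 30 intestines the 3 genes most alike to Mpo were Itih3, Ahsg and Alb, all hepatocyte genes, with Pearson's r of 0.715, 0.681 and 0.658 of log2(CPM + 1), which is a description with no test. In both control groups the library richest in Alb was also the one with the most S100a8 and S100a9. The part of Alb-rich material in the S100a8 and S100a9 levels was not tested.

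**Figure D2:**
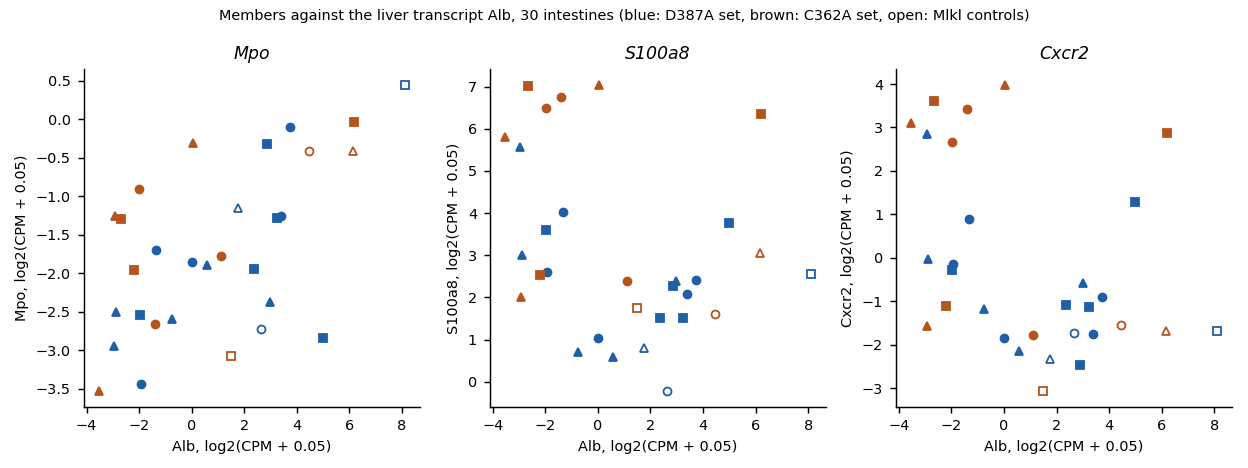
Levels of Mpo, S100a8 and Cxcr2 (vertical axes) against the hepatocyte transcript Alb (horizontal axes) in 30 intestines, all as log2(CPM + 0.05), with the D387A set in blue, the C362A set in brown and Mlkl controls as open symbols. The control library with 274.7 CPM of Alb has the highest Mpo level, 1.31 CPM. The 3 libraries with the highest S100a8 levels, 108 to 132 CPM, are C362A Mlkl.

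Casp1 loss was tested in D387A Cflar Mlkl intestines. Cxcl3, Cxcl5, Cxcr2, S100a8, S100a9 and Retnlg were called lower than in D387A Cflar Mlkl, 6 of 10 where 4.51% of all genes tested were called lower, and none was called higher where 8.88% of genes were. Cxcl5 went from 15.2, 14.6 and 15.7 CPM to 0.455, 0.449 and 2.53 CPM. It was 13.3-fold lower (log2 fold change -3.74 ± 0.44, adjusted p = 3.17e-06), and the remaining level in replicate 3 was the highest of the 3. Without that library Cxcl5 was at -5.05. Cxcl3 went from 36, 38 and 55 reads to 1, 2 and 3 reads, a log2 fold change of -4.22 ± 0.52 (adjusted p = 4.52e-06). Cxcr2 fell to 0.227, 0.405 and 0.620 CPM, 9.04-fold lower than with Casp1 (-3.18 ± 0.50, adjusted p = 5.84e-05). S100a8 fell to 2.00, 2.79 and 5.20 CPM, and S100a9 to 3.23, 4.58 and 8.06 CPM. Both lay below every D387A Cflar Mlkl intestine and within the range of the Mlkl controls, with log2 fold changes of -2.95 ± 0.62 (adjusted p = 0.000797) and -2.75 ± 0.66 (adjusted p = 0.00251). Without D387A Cflar Mlkl replicate 3, the highest for these genes, Cxcr2 was at -2.32, S100a8 at -2.17 and S100a9 at -1.90, all still called. Retnlg was at 0.682, 0.360 and 0.858 CPM (-1.71 ± 0.56, adjusted p = 0.0186), a call that was lost without D387A Cflar Mlkl replicate 3 (-0.96, adjusted p = 0.188) or without D387A Cflar Mlkl Casp1 replicate 2 (-1.42, adjusted p = 0.0800).

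Cxcl1, Cxcl2, Csf3 and Mpo were not called. Cxcl2 was at 4.41, 3.37 and 13.5 CPM after Casp1 loss, around its level in D387A Cflar Mlkl (log2 fold change 0.26 ± 0.36, adjusted p = 0.586). Without replicate 3 of the Casp1 KO group the difference was -0.61. Cxcl1 was at 1.27, 0.989 and 9.68 CPM, with 2 embryos below and 1 within the range with Casp1 (-1.21 ± 0.55, adjusted p = 0.0818). The call turned on replicate 3 and on the method. Cxcl1 was called lower without that library (-3.01, adjusted p = 2.72e-06), and with all libraries by limma-voom (-1.91, adjusted p = 0.00549) and by edgeR with no filter on low counts (-1.24, adjusted p = 0.0141). Csf3 had 0, 1 and 11 reads and was not called by edgeR with all libraries (-1.83, adjusted p = 0.107). It was called lower without replicate 3 (-4.59, adjusted p = 0.00620), without D387A Cflar Mlkl replicate 3 (-2.29, adjusted p = 0.0484) and by limma-voom (-2.60, adjusted p = 0.0261). Mpo had 5, 8 and 3 reads (0.76 ± 0.89, adjusted p = 0.510).

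Set against the Mlkl controls, D387A Cflar Mlkl Casp1 intestines had 3 of 10 members called higher, Cxcl2, Cxcl1 and Cxcl5, where 2.16% of all genes were, 2.18% were called lower and 4.34% in either direction. Cxcl2 was 6.59 ± 0.68 higher on the log2 scale (adjusted p = 1.09e-05) and Cxcl1 5.20 ± 1.00 (adjusted p = 0.00175), and both remained called without replicate 3, at 5.73 and 3.40. Cxcl5 was 3.00 ± 0.79 higher (adjusted p = 0.0120) and was not called without that replicate (1.69, adjusted p = 0.0913) or by limma-voom (2.36, adjusted p = 0.0761). Csf3 had 12 reads against 0, at least 3.61-fold higher by counting error alone, and 11 of them were in replicate 3. It was not called by edgeR and was called by DESeq2 (4.32, adjusted p = 0.0464). Among the neutrophil genes S100a8 was 0.26 ± 0.67 and S100a9 0.34 ± 0.70 above the controls, neither called. The calprotectin transcripts overlapped those of the controls.

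With Ifnar1 KO as well, all 4 ligands were above the Mlkl controls. In all 6 members were called higher and Mpo lower in D387A Cflar Mlkl Casp1 Ifnar1, where 6.76% of all genes were called higher and 5.64% lower. Cxcl2 was at 11.5, 13.1 and 13.8 CPM, the highest group mean of this set (7.44 ± 0.65, adjusted p = 3.07e-07). Cxcl1 was at 6.75, 11.6 and 8.54 CPM (6.38 ± 0.94, adjusted p = 3.49e-05), Cxcl5 at 2.84, 7.95 and 4.74 CPM (5.20 ± 0.65, adjusted p = 7.77e-06), and Cxcl3 at 8, 16 and 14 reads (3.24 ± 0.70, adjusted p = 0.00106). The 4 ligands were above every control embryo. Cxcr2 at 0.849, 0.771 and 0.930 CPM (1.92 ± 0.64, adjusted p = 0.0208) and S100a8 at 6.03, 11.97 and 8.03 CPM (1.65 ± 0.63, adjusted p = 0.0394) were called with small margins. The Cxcr2 call was lost by limma-voom (adjusted p = 0.0632), without control replicate 3 (adjusted p = 0.0777) and without Ifnar1 KO replicate 3 (adjusted p = 0.0502). The S100a8 call held in 2 of 6 fits that each left out a library and was lost by DESeq2 (adjusted p = 0.0504), and S100a8 was at 2.78 without control replicate 2, the library richest in Alb. S100a9 (1.15 ± 0.68, adjusted p = 0.175) was called without that control (2.04, adjusted p = 0.0462) and not with all libraries. Retnlg (0.28 ± 0.72, adjusted p = 0.777) was not called, nor was Csf3, at 4, 1 and 2 reads against 0 in the controls. Mpo, at 1, 3 and 3 reads, was called lower (-2.55 ± 0.83, adjusted p = 0.0178) but not without control replicate 2 (-1.33, adjusted p = 0.241) or by limma-voom (adjusted p = 0.0854).

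In the direct comparison with D387A Cflar Mlkl Casp1, from which the labels differ in Ifnar1 and in the leading number, 2 members were called higher, where 3.28% of all genes were, and none lower, where 2.03% were, 5.31% in either direction. They were Cxcl3, with 38 reads in all against 6 (2.45 ± 0.60, adjusted p = 0.00658), and Cxcl5 (2.19 ± 0.45, adjusted p = 0.00228). The 3 Ifnar1 KO embryos lay above the 3 others for both. Cxcl1 (1.18 ± 0.55, adjusted p = 0.116) and Cxcl2 (0.85 ± 0.35, adjusted p = 0.0746) were not called by edgeR with the filter and without a block. limma-voom called both (1.94, adjusted p = 0.00904, and 1.13, adjusted p = 0.00808). With no filter edgeR called Cxcl1 (adjusted p = 0.0299) and S100a8 (1.39, adjusted p = 0.0168), and with a replicate block Cxcl2 (1.02, adjusted p = 0.0154). Without D387A Cflar Mlkl Casp1 replicate 3 5 members were called higher, among them Cxcl1 by 2.98, Cxcl2 by 1.72 and S100a8 by 1.86, with Cxcl3 at 2.86 and Cxcl5 at 3.50, and in a fit of only the 2 groups compared none was.

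With Fadd KO in place of Ifnar1 KO, Cxcl1, Cxcl2 and Cxcl5 were called lower than in D387A Cflar Mlkl Casp1, 3 of 10 members where 0.877% of all genes were called lower, and none was called higher where 2.56% were, 3.44% in either direction. D387A Cflar Mlkl Casp1 Fadd intestines had 0.797, 0.660 and 0.307 CPM of Cxcl1, 0.930, 1.01 and 1.45 CPM of Cxcl2 and 4, 2 and 5 reads of Cxcl5. For all 3 ligands each Fadd KO embryo lay below each D387A Cflar Mlkl Casp1 embryo. Log2 fold changes with Fadd loss were -2.74 ± 0.72 for Cxcl1 (adjusted p = 0.0141), -2.64 ± 0.42 for Cxcl2 (adjusted p = 0.000460) and -2.76 ± 0.73 for Cxcl5 (adjusted p = 0.0145). Without D387A Cflar Mlkl Casp1 replicate 3 only Cxcl2 was still called, at -1.78, while Cxcl1 was at -0.94 (adjusted p = 0.161) and Cxcl5 at -1.45 (adjusted p = 0.104). Neither Cxcl1 (adjusted p = 0.122) nor Cxcl5 (adjusted p = 0.0822) was called by limma-voom. S100a8 (0.21 ± 0.64) and S100a9 (0.25 ± 0.67) were not called.

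Compared with the Mlkl controls, the Fadd KO intestines had 1 member called higher, where 2.81% of all genes were, and none lower, where 0.975% were, 3.78% in either direction. It was Cxcl2 (3.95 ± 0.87, adjusted p = 0.00420), with 21, 23 and 33 reads against 1, 0 and 3. Its log2 fold change was 3.42 to 5.18 when single libraries were left out. Cxcl1, with 18, 15 and 7 reads, was also above every control (2.46 ± 1.33) and was not called by edgeR (adjusted p = 0.223), while DESeq2 called it (2.54, adjusted p = 0.0472). Cxcl3, Cxcl5, Cxcr2, S100a8, S100a9, Retnlg and Mpo overlapped their control levels. Csf3, at 0, 5 and 2 reads against 0 in the controls, was not called.

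**Figure D3:**
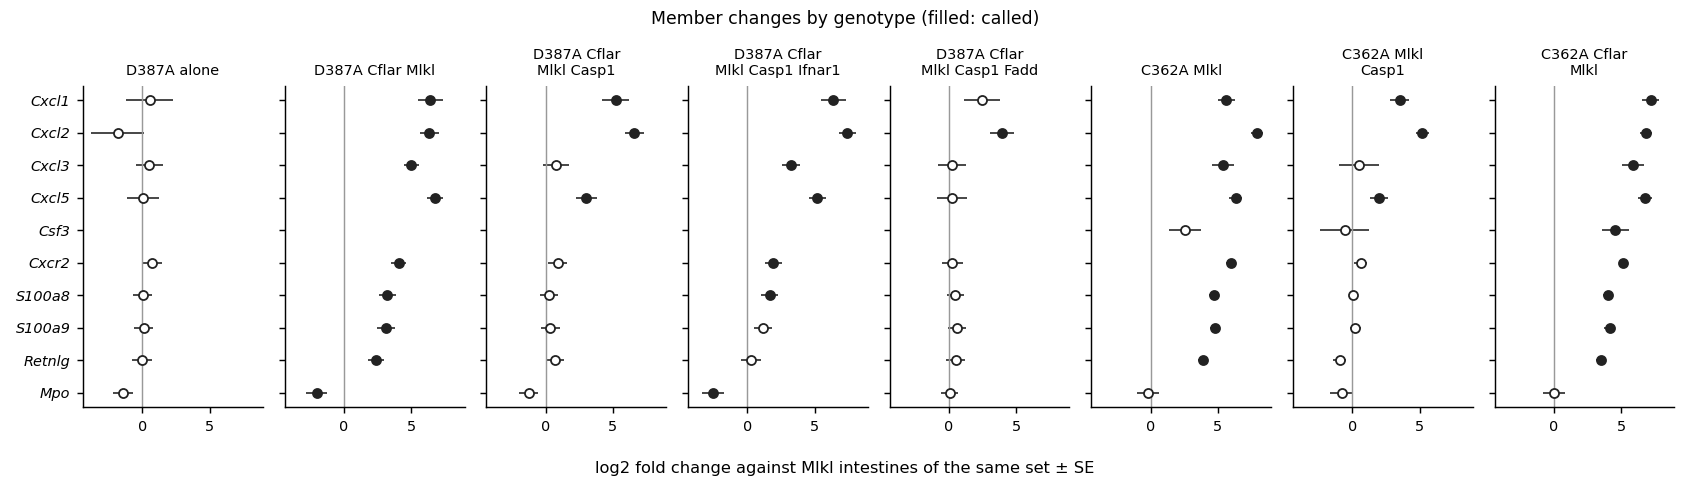
Log2 fold change of each member (horizontal axes, with SE as bars) in 8 intestinal genotypes, named above each panel, against the Mlkl intestines of the same set. Filled symbols are called by edgeR's quasi-likelihood test and open ones are not, and Csf3 is left out where its controls had 0 reads. In both Casp1 KO genotypes with functional Ifnar1 and Fadd the ligands Cxcl1 and Cxcl2 stay filled while Cxcr2, S100a8, S100a9 and Retnlg are open.

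Of the 12 groups, C362A Mlkl intestines had the highest mean levels of S100a8, S100a9, Cxcr2 and Retnlg. In C362A Mlkl intestines 8 of 10 members were called higher than in the Mlkl controls of that set, where 10.4% of the 19408 genes tested were called higher, and none was called lower, where 7.55% were. The median log2 fold change of the 10 was 5.08, beside 0.02 over all genes. S100a8 was at 108, 128 and 132 CPM and S100a9 at 160, 196 and 202 CPM. In the controls S100a8 was at 2.98, 3.30 and 8.24 CPM and S100a9 at 3.53, 4.23 and 12.8 CPM, with replicate 3 highest for both. The C362A Mlkl embryos were uniform and all far above the controls, with log2 fold changes of 4.69 ± 0.32 (adjusted p = 4.11e-08) and 4.78 ± 0.40 (adjusted p = 2.85e-07), or 5.28 and 5.57 without control replicate 3. Per exon length S100a9 (356.2 ± 44.0 RPKM, SD, n = 3) and S100a8 (252.9 ± 26.2 RPKM) exceeded every other member in these intestines.

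Cxcr2 rose to 10.7, 12.1 and 15.8 CPM from 0.294, 0.0688 and 0.262 CPM, 61.8-fold (5.95 ± 0.33, adjusted p = 6.78e-09). Retnlg rose to 10.5, 9.79 and 9.18 CPM from 0.257, 0.585 and 1.18 CPM (3.90 ± 0.36, adjusted p = 8.87e-07), or by 4.51 without control replicate 3. For neither gene did the groups come near each other. Of the ligands, Cxcl2 rose most, to 13.8, 25.6 and 18.9 CPM from 2, 1 and 3 control reads (7.91 ± 0.44, adjusted p = 6.72e-09). Cxcl1 was at 6.76, 6.27 and 8.42 CPM (5.64 ± 0.65, adjusted p = 7.52e-06), Cxcl5 at 9.95, 10.5 and 14.1 CPM (6.33 ± 0.49, adjusted p = 1.4e-07) and Cxcl3 at 1.27, 2.14 and 1.92 CPM (5.39 ± 0.84, adjusted p = 0.000129). Csf3 had 13, 8 and 12 reads against 0, 3 and 2, above every control but not called (2.56 ± 1.17, adjusted p = 0.0950). It was called by DESeq2 (adjusted p = 0.0277), by edgeR with no filter (adjusted p = 0.0218) and with the controls of both sets pooled (adjusted p = 0.0121). Mpo had 3, 10 and 21 reads against 19, 2 and 16 (-0.22 ± 0.82, adjusted p = 0.851) and was not called.

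Casp1 loss from C362A Mlkl lowered 8 of 10 members, where 5.72% of all genes were called lower, and raised none, where 5.6% were called higher. S100a8 went to 5.22, 5.74 and 3.96 CPM, 24.7-fold lower (-4.63 ± 0.32, adjusted p = 2.26e-07), and S100a9 to 7.19, 9.65 and 7.03 CPM (-4.55 ± 0.39, adjusted p = 1.42e-06). Cxcr2 was 40.4-fold lower at 0.241, 0.416 and 0.286 CPM (-5.33 ± 0.32, adjusted p = 7.81e-08), and Retnlg 28.4-fold lower at 0.321, 0.416 and 0.286 CPM (-4.83 ± 0.40, adjusted p = 1.05e-06). All 4 genes overlapped their Mlkl controls after Casp1 loss. All 4 ligands fell. Cxcl3 had 4, 0 and 0 reads left (-4.91 ± 0.81, adjusted p = 0.000386), and Cxcl5 was at 0.763, 0.541 and 0.368 CPM (-4.36 ± 0.41, adjusted p = 2.65e-06). The size for Cxcl3 rests on the reads of 1 embryo and was -8.54 to -4.37 when single libraries were left out. Cxcl2 at 3.30, 3.49 and 2.17 CPM (-2.70 ± 0.28, adjusted p = 6.73e-06) and Cxcl1 at 0.924, 2.54 and 1.47 CPM (-2.12 ± 0.46, adjusted p = 0.00308) were lower as well. Csf3 had 1 read in each embryo, 9.68-fold lower than in C362A Mlkl (exact 95% interval 3.04 to 49.3, counting error only) and not called (adjusted p = 0.0775), though it was by DESeq2 (adjusted p = 0.0165) and by edgeR with no filter (adjusted p = 0.0122).

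Against the Mlkl controls, C362A Mlkl Casp1 intestines had Cxcl2, Cxcl1 and Cxcl5 called higher, 3 of 10 members where 6.79% of all genes were, and none called lower, where 3.73% were. Cxcl2 was 5.21 ± 0.49 higher on the log2 scale (adjusted p = 2.25e-06), Cxcl1 3.51 ± 0.73 (adjusted p = 0.00222) and Cxcl5 1.97 ± 0.65 (adjusted p = 0.0300). The Cxcl5 call held in 1 of 6 fits that each left out a library and was not made by limma-voom (1.87, adjusted p = 0.130). S100a8 was 0.06 ± 0.32 and Cxcr2 0.61 ± 0.47 from the controls, neither called. S100a9, at 7.19, 9.65 and 7.03 CPM against 3.53, 4.23 and 12.8 CPM, was not called with all libraries (0.24 ± 0.38, adjusted p = 0.659), and its groups overlapped through control replicate 3 alone. Without that control it was called higher (1.02, adjusted p = 0.00844), and without control replicate 1 or 2 it was at -0.11 and -0.05. Retnlg was called lower without control replicate 1 (-1.36, adjusted p = 0.0290) and not with all libraries. Cxcl1 and Cxcl2 were above every control embryo, as in the D387A set.

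C362A Cflar Mlkl intestines had 9 of 10 members called higher than the Mlkl controls, where 13.4% of all genes were, and none lower, where 11.2% were. Log2 fold changes were 7.20 ± 0.64 for Cxcl1, 6.84 ± 0.45 for Cxcl2, 5.87 ± 0.82 for Cxcl3 and 6.77 ± 0.49 for Cxcl5, and 3.47 to 5.15 for Cxcr2, S100a8, S100a9 and Retnlg. Without control replicate 3 S100a8 was at 4.61, S100a9 at 4.95 and Retnlg at 4.11. Csf3 had 97, 20 and 6 reads (4.57 ± 1.00, adjusted p = 0.00152). Replicate 1 was the highest of the 3 embryos for Csf3 and for all 4 ligands, with 37.3 CPM of Cxcl1 against 18.3 and 8.12, and 26.1 CPM of Cxcl5 against 11.3 and 9.54. It also had 474 reads of Il6, an inflammatory cytokine, against 74 and 15. Without this embryo Csf3 was still called, at 2.83, and Cxcl1 at 6.52. Cxcr2 had the opposite order, at 6.30, 7.28 and 8.59 CPM. S100a8 was at 90.4, 81.3 and 56.0 CPM, and Mpo at 12, 25 and 1 reads was not called (0.01 ± 0.80, adjusted p = 0.993).

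Cflar loss within C362A Mlkl was tested directly, and 2 of 10 members were called. Cxcl1 was called higher (1.57 ± 0.41, adjusted p = 0.0164) and Cxcl2 lower (-1.07 ± 0.26, adjusted p = 0.00995), where 1.45% of all genes were called higher and 4.62% lower, 6.06% in either direction. Csf3 had the largest log2 fold change of the 10, 2.01 ± 0.75, with 123 reads against 33, and was not called (adjusted p = 0.0752). It was called with no filter (2.02, adjusted p = 0.00868) and without C362A Cflar Mlkl replicate 3 (2.53, adjusted p = 0.00471), and was at 0.27 without replicate 1 of that group. The Cxcl1 groups overlapped, and its log2 fold change was 0.88 (adjusted p = 0.102) without C362A Cflar Mlkl replicate 1. The call was also lost without replicate 1 or 2 of C362A Mlkl (1.52 and 1.48, adjusted p = 0.0605 and 0.0637). The Cxcl2 change lay at the edge of the threshold and was below it without C362A Mlkl replicate 2 (-0.83, adjusted p = 0.0555) or without C362A Cflar Mlkl replicate 3 (-0.90). Cxcr2 at -0.80 ± 0.23 (adjusted p = 0.0245), S100a8 at -0.70 ± 0.27 (adjusted p = 0.0843) and S100a9 at -0.65 ± 0.33 (adjusted p = 0.196) were lower in all 3 embryos than in any C362A Mlkl embryo and under the fold threshold.

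The effect of Casp1 loss was compared between both backgrounds by testing the difference of the 2 log2 fold changes in a fit of 30 intestines. Cxcl2, Cxcr2 and Retnlg differed, 3 of 10 members, all with a less negative change in D387A Cflar Mlkl, where 4.9% of the 19643 genes tested were called in that direction and 0.825% in the other. For Cxcl2 the difference was 2.98 ± 0.49 (adjusted p = 0.000338), from a Casp1 loss effect of 0.26 in D387A Cflar Mlkl and -2.70 in C362A Mlkl. It was 2.13 and still called without D387A Cflar Mlkl Casp1 replicate 3. For Retnlg it was 3.14 ± 0.78 (adjusted p = 0.00749) and for Cxcr2 2.18 ± 0.69 (adjusted p = 0.0312), the latter called in 5 of 12 fits that each left out a library and not without D387A Cflar Mlkl Casp1 replicate 3 (1.80, adjusted p = 0.109). Retnlg averaged 9.82 CPM in C362A Mlkl and 2.06 CPM in D387A Cflar Mlkl, and 0.341 and 0.633 CPM after Casp1 loss. S100a8 differed by 1.69 ± 0.73 (adjusted p = 0.106) and Cxcl5 by 0.64 ± 0.67 (adjusted p = 0.536), neither called. The Casp1 loss effect of Cxcl5 in D387A Cflar Mlkl was -5.05 without D387A Cflar Mlkl Casp1 replicate 3. In C362A Mlkl it was -4.66 to -4.14 when single libraries were left out, so the sign of the Cxcl5 difference turned on that library. Without D387A Cflar Mlkl replicate 3, S100a8 (2.48, adjusted p = 0.0190) and S100a9 (2.67, adjusted p = 0.0223) were also called. The sets differ in Cflar as well as in the Casp8 allele, which cannot be told apart here. In the matched comparison of D387A Cflar Mlkl with C362A Cflar Mlkl, each against its own controls, no member was called different by edgeR, where 0.0764% of genes were (0.0102% higher and 0.0662% lower in D387A Cflar Mlkl), while 4043 genes had an unadjusted p under 0.05.

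**Figure D4:**
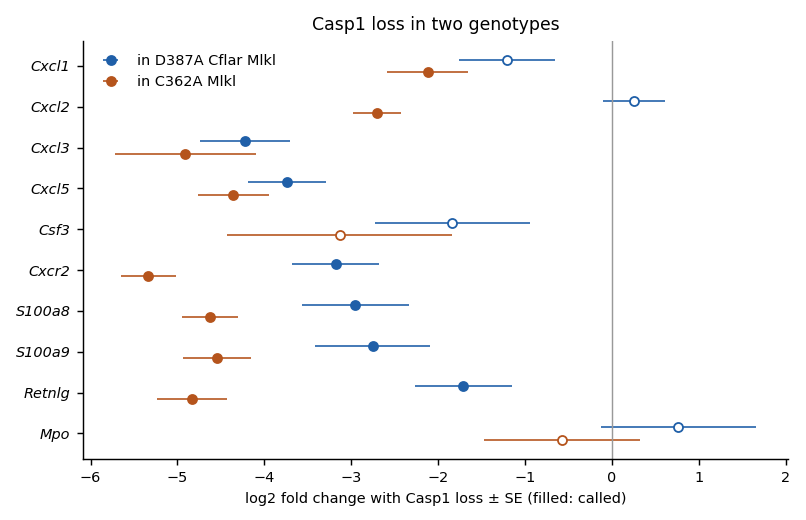
Log2 fold change of each member with Casp1 loss (horizontal axis, bars are SE) in D387A Cflar Mlkl (blue) and in C362A Mlkl (brown) intestines, with filled symbols for called changes. Cxcl2 sits at 0.26 in D387A Cflar Mlkl and at -2.70 in C362A Mlkl, and Cxcl3 and Cxcl5 are lowered in both.

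In MEFs, 3 of the 10 genes, Cxcl1, Cxcl3 and Cxcl5, had enough reads to be tested. None of the 3 was called, where 0.0711% of the 15465 genes tested were called at all and 1001 genes had an unadjusted p under 0.05. Cxcl5 was abundant without any Casp8 change, at 30.1, 51.7 and 23.9 CPM in Mlkl MEFs, far above the 0.10 to 0.158 CPM of Mlkl intestines in the D387A set. In D387A Cflar Mlkl MEFs it was at 35.8, 90.2 and 82.3 CPM, and the groups overlapped (0.97 ± 0.37, adjusted p = 0.698), though the mutant was the higher of each same-numbered pair. Cxcl1 was at 2.94, 3.91 and 4.50 CPM in Mlkl MEFs and at 7.57, 8.98 and 7.23 CPM in D387A Cflar Mlkl MEFs, so that every mutant culture lay above every control. Its log2 fold change was 1.07 ± 0.19, not called by edgeR (adjusted p = 0.143) but called by DESeq2 (adjusted p = 0.000578) and by edgeR without a filter on low counts (adjusted p = 0.00389). Cxcl3 had 8, 15 and 0 reads against 13, 5 and 20 (0.95 ± 0.77, adjusted p = 0.891). Of the genes too low to test, Cxcr2 had 1 read in all 6 libraries and Retnlg none. S100a8 had 0 reads in the 3 control cultures and 8, 3 and 2 in the mutants, at least 5.04-fold higher by counting error alone. S100a9 had 1, 2 and 1 reads against 6, 15 and 4.

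The D387A Cflar Mlkl effect was called larger in intestine than in MEFs for 3 members with enough reads in both, Cxcl1, Cxcl3 and Cxcl5, where 7.3% of the 18862 genes tested were called in that direction and 8.01% in the other. The differences of log2 fold changes were 5.37 ± 1.08 for Cxcl1 (adjusted p = 0.000410), 4.09 ± 1.07 for Cxcl3 (adjusted p = 0.00414) and 5.79 ± 0.85 for Cxcl5 (adjusted p = 1.29e-05). Cxcl2, with 13 and 17 reads in the MEF groups, and Csf3, with 17 and 16, were too low to be tested within MEFs and entered this fit through the intestines in which they were high, so they are left out of this count. Without replicate 2 of the Mlkl MEFs, which had 11 of the 13 control reads, the Cxcl2 difference was 3.83 and not called, against 5.75 ± 1.39 (adjusted p = 0.00225) with it. For Csf3 the adjusted p was 0.0209, but its control intestines were at 0 reads and the size of its difference depends on the count added before the logarithm. It was not called without replicate 3 of the Mlkl MEFs. The ligands differ in where they start. Per exon length Cxcl5 was at 0.0865 RPKM in Mlkl intestines and at 22.4 RPKM in Mlkl MEFs, and in the mutants it was at 9.62 and 44.1 RPKM. Cxcl1 ended at like levels, 9.63 and 8.32 RPKM, from 0.107 and 3.97 RPKM. Tissue and culture cannot be told apart from preparation in this comparison.

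**Figure D5:**
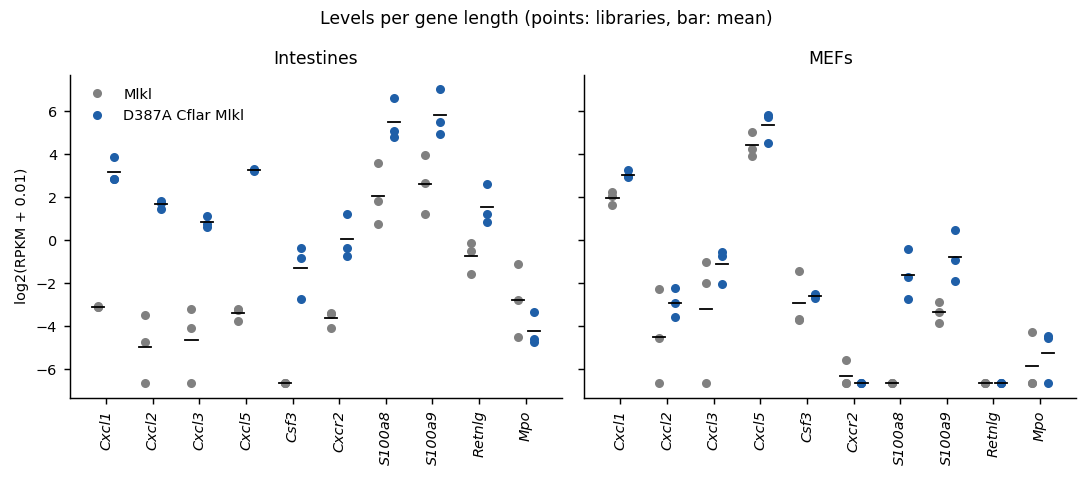
Levels per exon length, as log2(RPKM + 0.01) on the vertical axis, of the 10 genes (horizontal axis) in intestines (left) and MEFs (right) of Mlkl controls (grey) and D387A Cflar Mlkl (blue), with 1 point per library and a bar at the mean. Cxcl1 and Cxcl5 are already present in Mlkl MEFs and close to the floor in Mlkl intestines, and Cxcr2 and Retnlg are at or near 0 in MEFs.

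Other genes of the axis were counted in lists, beside 9.4% of all genes called higher and 12.8% lower in D387A Cflar Mlkl, 10.4% and 7.55% in C362A Mlkl, 8.88% and 4.51% with Casp1 loss in D387A Cflar Mlkl and 5.6% and 5.72% with Casp1 loss in C362A Mlkl. Of 14 further mature neutrophil genes, 13 were tested. In D387A Cflar Mlkl 11 rose and 1 fell, with Clec4e (5.37), Clec4d (4.72) and Stfa2 (4.35) among the largest rises on the log2 scale, and in C362A Mlkl 12 rose and 1 fell. The one that fell both times was Padi4, the enzyme that citrullinates histones in neutrophil extracellular traps, at -3.53 and -2.14, named after its values were seen. Casp1 loss lowered 8 and raised 1 in D387A Cflar Mlkl, and lowered 11 and raised 1 in C362A Mlkl. Ly6g, which defines mouse neutrophils, had 1, 0 and 4 reads in the D387A set controls, 37, 34 and 46 in D387A Cflar Mlkl and 3, 0 and 7 after Casp1 loss, and 75, 61 and 73 in C362A Mlkl. Csf3r, the G-CSF receptor, rose by 4.04 in C362A Mlkl and fell by 3.16 with Casp1 loss there.

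Of 8 secondary and tertiary granule genes 7 were tested in the D387A set and 8 in the C362A set. In D387A Cflar Mlkl 4 rose and none fell, Lcn2 by 4.53, Mmp8 by 3.83, Mmp9 by 2.34 and Cd177 by 2.29. In C362A Mlkl 6 rose, led by Lcn2 (4.62), Mmp8 (4.54), Chil3 (3.36) and Ltf (3.18). Lcn2, made by both neutrophils and inflamed epithelium, had log2 fold changes with Casp1 loss of -2.90 in D387A Cflar Mlkl and -4.50 in C362A Mlkl. Ltf differed from the rest, since lactoferrin transcript was 3.80 above the controls in C362A Mlkl Casp1 and 2.80 and 2.28 above them in D387A Cflar Mlkl Casp1 with Ifnar1 KO and with Fadd KO. Of the primary granule genes other than Mpo only Prtn3 was tested, called higher in C362A Mlkl (1.07) and C362A Cflar Mlkl (1.62). Elane, Ctsg and Ms4a3 had 0 to 8 reads in every intestine.

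Among 12 cytokines that act upstream of these ligands, 6 were tested in the D387A set and 8 in the C362A set. In D387A Cflar Mlkl Il1b rose by 5.73, Tnf by 5.62, Il6 by 5.18 and Il17c by 4.44, and none fell. Casp1 loss lowered Il6 (-3.83) and Il1b (-3.40) there and raised Il1a (2.29), while Tnf remained 4.62 and Il17c 5.92 above the Mlkl controls. In C362A Mlkl 6 of 8 rose, led by Il36g (8.02) and Tnf (5.07), and Casp1 loss lowered Il36g (-5.95), Il1b (-4.60) and Tnf (-1.46). Il17a, the cytokine of T cells that induces the same ligands in adults, had 0 reads in all 36 libraries. Of 8 genes of IL-17 receptor signaling and its feedback, 4 rose and none fell in both D387A Cflar Mlkl and C362A Mlkl. They included Nfkbia (2.73 and 2.18) and Zc3h12a (2.17 and 2.42), a ribonuclease that degrades inflammatory transcripts such as Il6, and Zc3h12a was the gene most alike to Cxcl2 across 30 intestines (r = 0.970).

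Of 9 genes of neutrophil adhesion and retention, 7 rose in each of D387A Cflar Mlkl and C362A Mlkl and none fell, where 9.4% and 10.4% of all genes were called higher. The endothelial selectins led, Sele by 4.23 and 4.08 and Selp by 3.52 and 3.50. With Casp1 loss Selp fell by 3.90 and 3.23 and Sele by 2.48 and 3.07, while Icam1 stayed called above the controls in all 3 D387A Cflar Mlkl genotypes with Casp1 KO (1.09 to 2.70) and in C362A Mlkl Casp1 (1.59). The other CXC genes of chromosome 5 were led by the CXCR3 ligands Cxcl9, Cxcl10 and Cxcl11. With Casp1 loss Cxcl9 fell, by 4.69 and 5.79, and Cxcl11 remained 8.80 and 9.86 above the controls. Of 6 further colony-stimulating factor and receptor genes, 2 rose and 2 fell in D387A Cflar Mlkl, and 3 rose and 1 fell in C362A Mlkl. Csf2rb (2.72 and 2.87) and Csf3r (1.78 and 4.04) rose in both, and Csf1 in C362A Mlkl (1.52). Csf2 fell in both (-2.16 and -1.44), and Csf1r, the receptor of macrophages, fell in D387A Cflar Mlkl (-1.83).

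Of 11 markers of macrophages and monocytes 3 rose and 1 fell in D387A Cflar Mlkl, beside 9.4% of all genes called higher and 12.8% lower, and their summed level was 449.0 to 607.1 CPM against 479.5 to 516.2 CPM in controls. In C362A Mlkl 7 rose, beside 10.4% of all genes, and the sum was 865.2 to 890.3 CPM against 433.7 to 505.9 CPM. Among them were Lyz2 (2.92) and Ccr2 (2.27), the receptor that brings monocytes into tissue. Markers of fetal liver fell in D387A Cflar Mlkl, 5 of 6, and their part in the members' changes was not tested.

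Genes with a like pattern were sought across the 30 intestines. The genes most alike to S100a8 were S100a9 (Pearson's r = 0.994 of log2(CPM + 1) among 18196 genes), Gm5483 (0.980) and 2010005H15Rik (0.975). Cxcr2 was most alike to Tarm1 (0.985), Stfa2 (0.985) and 2010005H15Rik (0.982), and Retnlg to Mmp8 (0.976). Stfa2, Gm5483 and 2010005H15Rik belong to a family of near copies whose reads may be shared. Cxcl5 was most alike to Lpcat4 (0.980), Cxcl3 to Retnlb (0.969), Cxcl1 to Duoxa2 (0.954) and Csf3 to Il6 (0.945). The libraries share genotype groups and tissue make-up, so these values describe the samples and carry no test.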

How the data were processed

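Libraries were single-end RNA-seq. The sources used here disagree on kit and instrument, and the counting program, annotation and strand setting are not given in them. Per the labels and the study's methods, reads were aligned to GRCm38/mm10 with GSNAP. The authors deposited, per library and gene, a count of uniquely aligned exonic reads and an RPKM value. The deposited RPKM values were not used. CPM and RPKM printed here were computed from the counts on TMM-scaled library sizes and the deposited exon widths.

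Each set was fitted separately with edgeR 4.0.16 (quasi-likelihood test, TMM, filterByExpr with minimum counts of 10 and 15, R 4.3.3), with Benjamini-Hochberg adjustment over all genes tested. Scripts were tested on simulated data. Replicates are labelled biological, 3 per group. Differences of effects were fitted across sets, and anything else that differed between the sets and acted on only one arm cannot be told apart from them. The other settings tried were DESeq2 1.42.0, voom in limma 3.58.1, RLE factors, no filter, a mean of at least 50 reads, a prior count of 2, fits of only the 2 groups compared, pooled controls, a replicate block, and leaving out each library. Same-numbered MEF libraries deviated together (r 0.181 to 0.310 in all 3 pairs), so the numbers were taken to pair them, which the sample titles do not state. MEF values printed here are from fits without a block, and the blocked fit changed no MEF call. All 10 members were named. Other genes came from lists, with the 4 largest called changes per list named and a few others, such as Ly6g, Alb and Icam1, named after their values were seen. One listed gene is not reported here by name. Members and lists were chosen with earlier results of these data known. Intervals and floors cover counting error only. Promoter windows are from RefSeq on GRCm38.p6.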

Additional observations from a re-analysis of the deposited data

Results flagged for a closer look

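Each of 3 differences of an effect between 2 settings was tested for the 10 genes, and 8 of these tests passed the thresholds, with none for the Cflar Mlkl effect between D387A and C362A. The Casp1 loss effect was less negative in D387A Cflar Mlkl than in C362A Mlkl intestines by 2.98 for Cxcl2, 2.18 for Cxcr2 and 3.14 for Retnlg on the log2 scale. The D387A Cflar Mlkl effect was larger in intestines than in MEFs by 5.37 for Cxcl1, 5.75 for Cxcl2, 4.09 for Cxcl3, 5.79 for Cxcl5 and 6.89 for Csf3, the last with no control reads in intestines, so that its size depends on the prior count. Cxcl2 and Csf3 were too low to be tested within MEFs and entered that fit through the intestines. Groups of 3 were not tested for single outlying samples.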

How the results depend on the processing

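Of 70 called member changes, 55 kept their call under every alternative run, and over 1013 refitted values 49 lost the call and 0 turned direction. A mean of at least 50 reads left 5 members to test and gave 5 calls in D387A Cflar Mlkl, 4 in D387A Cflar Mlkl Casp1 Ifnar1, 3 for Casp1 loss in D387A Cflar Mlkl and 1 for Ifnar1 loss. For Ifnar1 loss, 2 by edgeR, limma-voom gave 4, no filter 4 and a fit of only the 2 groups 0. For Fadd loss, 3 by edgeR, limma-voom and the fit of only the 2 groups gave 1 each. DESeq2 gave 2 in D387A Cflar Mlkl Casp1 Fadd and 1 in MEFs, where no filter also gave 1. Leaving out single libraries gave 2 to 5 calls for Ifnar1 loss, 1 to 3 for Fadd loss, 0 to 2 for Cflar loss in C362A Mlkl and 2 to 5 for the difference of the Casp1 loss effect. S100a9 in C362A Mlkl Casp1, not called with all libraries, ranged from -0.11 to 1.02 and was called higher without control replicate 3. The causes were not tested beyond the smaller number of genes or libraries that these fits hold.

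In intestines 9 of 45 and 4 of 18 same-numbered pairs had a correlation of deviations over 0.1, so the numbers were not taken to pair the samples. A replicate block added the calls of Cxcl2 with Ifnar1 loss (1.02) and of Csf3 with Casp1 loss in C362A Mlkl (-3.28) and changed no other call.

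Depth limits the members with few reads: with 0 to 5 reads per control intestine, falls below the control level were not detectable for the 5 secreted factors.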
